A study of Saccharomyces cerevisiae with 34 samples.

Results

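The 8 genes described here, *JEN1*, *SFC1*, *ACS1*, *ICL1*, *MLS1*, *MDH2*, *PCK1* and *FBP1*, encode the uptake of lactate, the glyoxylate cycle and gluconeogenesis in budding yeast. They were chosen by gene name, as genes that glucose represses, and all 8 were found among the 6209 genes of the count tables. Messenger RNA was counted in 34 libraries from asynchronous MATa cells of 17 strains of the W303 background (RAD5), grown in YEP with lactic acid and sampled before galactose was added (t0) and 2 h after it was added (t2). The 6 genotypes were WT, *psh1Δ* (no Psh1, the ubiquitin ligase that targets excess CENP-A Cse4), *pGAL-3Flag-CSE4* (tagged CENP-A Cse4 under the galactose-induced promoter), *psh1Δ pGAL-3Flag-CSE4*, *htz1Δ* (no H2A.Z) and *pGAL-H3* (*HHT1* under the same promoter). Each genotype had 3 cultures, 1 in each of batches 1, 2 and 3, except *pGAL-3Flag-CSE4*, which had none in batch 1, so n = 3 or 2 per genotype and time. Every culture came from a strain of its own, so batch and strain isolate cannot be told apart. All strains, WT included, received galactose, and a library measures a whole culture, so fewer cells with a transcript and less transcript per cell cannot be told apart.

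Library totals ran from 5258139 to 6836827 counts, and the 8 genes had between 84 and 36332 counts in each library, both extremes belonging to *PCK1*. All 50-base windows of the 8 coding sequences were unique in the genome, and none of the 8 overlapped another gene of the tables. *PSH1* had at most 3 counts in the 12 libraries of its deletion strains and at least 165 elsewhere, and *HTZ1* at most 2 in the 6 *htz1Δ* libraries and at least 556 elsewhere. *GAL1*, the galactokinase gene, lay between 20.9 and 44.5 CPM at t0 and between 13352 and 22161 CPM at t2, where CPM is the count scaled by library total and TMM factor. In the batch 1 cultures of *psh1Δ* and *psh1Δ pGAL-3Flag-CSE4*, the 88 genes of chromosome I had medians of 0.80 to 0.92 (log2) above WT of the same batch and time. *ACS1* is the only one of the 8 genes on that chromosome, and its values in these 4 libraries are given with that shift.

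Cells that live on lactate must make sugar phosphates from small carbon compounds. Jen1 is the plasma membrane permease that brings lactate in, and lactate is oxidised to pyruvate in mitochondria. Acs1 makes acetyl-CoA from acetate, Icl1 (isocitrate lyase) and Mls1 (malate synthase) are the 2 enzymes that distinguish the glyoxylate cycle from the tricarboxylic acid (TCA) cycle, and Sfc1 carries the succinate that Icl1 produces into mitochondria in exchange for fumarate. Mdh2 is the cytosolic malate dehydrogenase, Pck1 (phosphoenolpyruvate carboxykinase) commits oxaloacetate to gluconeogenesis, and Fbp1 (fructose-1,6-bisphosphatase) catalyses its last irreversible step before hexose phosphate. In glucose these genes are repressed through Mig1. When the kinase Snf1 is active, Cat8 and Sip4 induce many of them through the carbon source response element (CSRE).

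The 500 bases before each coding start were read from the S288C reference genome (SacCer3, the build of the tables, with sequence from RefSeq R64). They were searched on both strands for a loose CSRE core (CC, then any 6 bases, then CCG) and for 4 forms of the Mig1 core. These forms were CCGGGG (found before 4.14% of all genes), then CTGGGG (before 7.33%), then GCGGGG (before 5.83%) and last GTGGGG (before 8.29%). The CSRE core was found before 7 of the 8 genes, all but *JEN1*, and before 21.0% of all 6209 genes. At least 1 Mig1 form was found before 5 of the 8, *FBP1*, *ICL1*, *MDH2*, *MLS1* and *PCK1*, and before 22.7% of all genes. A *MDH2* CSRE core and a Mig1 form overlapped, and the others did not overlap a motif of the other kind. The nearest upstream gene of the tables was at least 771 bases away from each of the 8 genes. One CSRE core from each of the 7 genes is shown as an example, 5′ to 3′ on the strand of the gene, with the core in capitals on whichever strand it was found. *ACS1*, *FBP1*, *MDH2*, *MLS1* and *PCK1* had further cores that are not shown, so the examples do not measure how far the cores differ. A match is a description of letters and not of a bound site.
ICL1 (chrV:287294-287320, minus strand): ccaggtttCCATTCATCCGagcgatca
PCK1 (chrXI:630663-630689, plus strand): ccgagcttCCTTTCATCCGgcgcggct
MDH2 (chrXV:83279-83305, minus strand): tactttgcCCATTCGGCCGtagccgtt
ACS1 (chrI:45375-45401, minus strand): tgactgctCCATTTCGCCGgatgtcga
MLS1 (chrXIV:405892-405918, plus strand): gcggttgtCCCCTTTCCCGgcgagccg
SFC1 (chrX:609274-609300, plus strand): gcctagtcCCGGTAAACCGcaaacgga
FBP1 (chrXII:875206-875232, minus strand): cggtcgtgCGGACACCCGGagttatgc
Of the Mig1 forms, the 2 nearest to a start were a GTGGGG in *FBP1*, 193 to 198 bases before it, and a CTGGGG in *PCK1*, 274 to 279 bases before it. A second form in *FBP1*, CCGGGG, stood farthest of all, 465 to 470 bases before the start. The 2 nearest are shown in the same way, with the Mig1 form in capitals.
FBP1 (chrXII:874977-874998, minus strand): ggcatcttCCCCACactatatt
PCK1 (chrXI:630865-630886, plus strand): aggcttggCTGGGGatagcaac

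At t0 all 8 genes were highly expressed in batches 1 and 2 of every genotype, and 7 of the 8 were lower in batch 3, before any galactose had been added. The size of the difference varied with gene and genotype, and *JEN1* in *pGAL-3Flag-CSE4* was at 4379 CPM in batch 2 and 2817 CPM in batch 3. *JEN1* (YKL217W, SacCer3 chromosome XI, 22234 to 24084, plus strand) was at 4046, 4310.0 and 1133 CPM in WT batches 1, 2 and 3 at t0. Over all genotypes it lay between 4046 and 4887 CPM in the 11 libraries of batches 1 and 2 and between 1100 and 2817 CPM in the 6 libraries of batch 3. The lactate permease message was therefore reduced in batch 3 but stayed abundant.

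The gluconeogenic genes differed most between batches. *PCK1* (YKR097W, chromosome XI, 631152 to 632801, plus strand) was at 4608, 5264 and 77.1 CPM in WT batches 1, 2 and 3 at t0, and *FBP1* (YLR377C, chromosome XII, 873746 to 874792, minus strand) was at 1956, 2229 and 47.0 CPM. Over all genotypes, *PCK1* lay between 3306 and 6103 CPM in batches 1 and 2, with its 2 lowest values in *htz1Δ*, and between 76.2 and 1057 CPM in batch 3. *FBP1* lay between 1851 and 2618 CPM and between 30.7 and 415.4 CPM. The upper end of both batch 3 ranges was the *pGAL-3Flag-CSE4* culture, and the next highest batch 3 culture was *htz1Δ*, at 158.3 CPM for *PCK1* and 119.9 CPM for *FBP1*.

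The glyoxylate cycle genes behaved alike. *ICL1* (YER065C, chromosome V, 285241 to 286914, minus strand) was at 1184, 1501 and 119.3 CPM in WT batches 1, 2 and 3 at t0, and *MLS1* (YNL117W, chromosome XIV, 406358 to 408022, plus strand) at 770.9, 742.8 and 25.9 CPM. Over all genotypes *ICL1* had 1082 to 1692 CPM in batches 1 and 2 and 84.9 to 332.4 CPM in batch 3, and *MLS1* 539.4 to 929.7 CPM and 25.9 to 105.1 CPM. *MDH2* (YOL126C, chromosome XV, 81787 to 82920, minus strand) stood apart, at 1051, 1489 and 616.0 CPM in WT batches 1, 2 and 3. Its range over all genotypes, 813.7 to 1562 CPM in batches 1 and 2, overlapped that of batch 3, 322.5 to 820.9 CPM, in which *htz1Δ* was lowest.

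The genes that feed carbon into these pathways followed the first pattern. *SFC1* (YJR095W, chromosome X, 609773 to 610741, plus strand) was at 1017, 1076 and 49.5 CPM in WT batches 1, 2 and 3 at t0, and *ACS1* (YAL054C, chromosome I, 42881 to 45022, minus strand) at 438.8, 619.9 and 38.7 CPM. *SFC1* lay between 579.2 and 1202 CPM over all genotypes in batches 1 and 2 and between 19.4 and 275.2 CPM in batch 3, and *ACS1* between 386.7 and 1178 CPM and between 36.0 and 136.3 CPM. The 2 highest *ACS1* values at t0, 1178 CPM in *psh1Δ pGAL-3Flag-CSE4* and 1121 CPM in *psh1Δ*, were those of the batch 1 cultures with high chromosome I. The batch 2 cultures of these genotypes had 472.4 and 825.3 CPM. For 7 of the 8 genes, all but *MDH2*, every batch 3 library was below every library of batches 1 and 2 at t0, which was so for 2.72% of all genes.

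**Figure D1:**
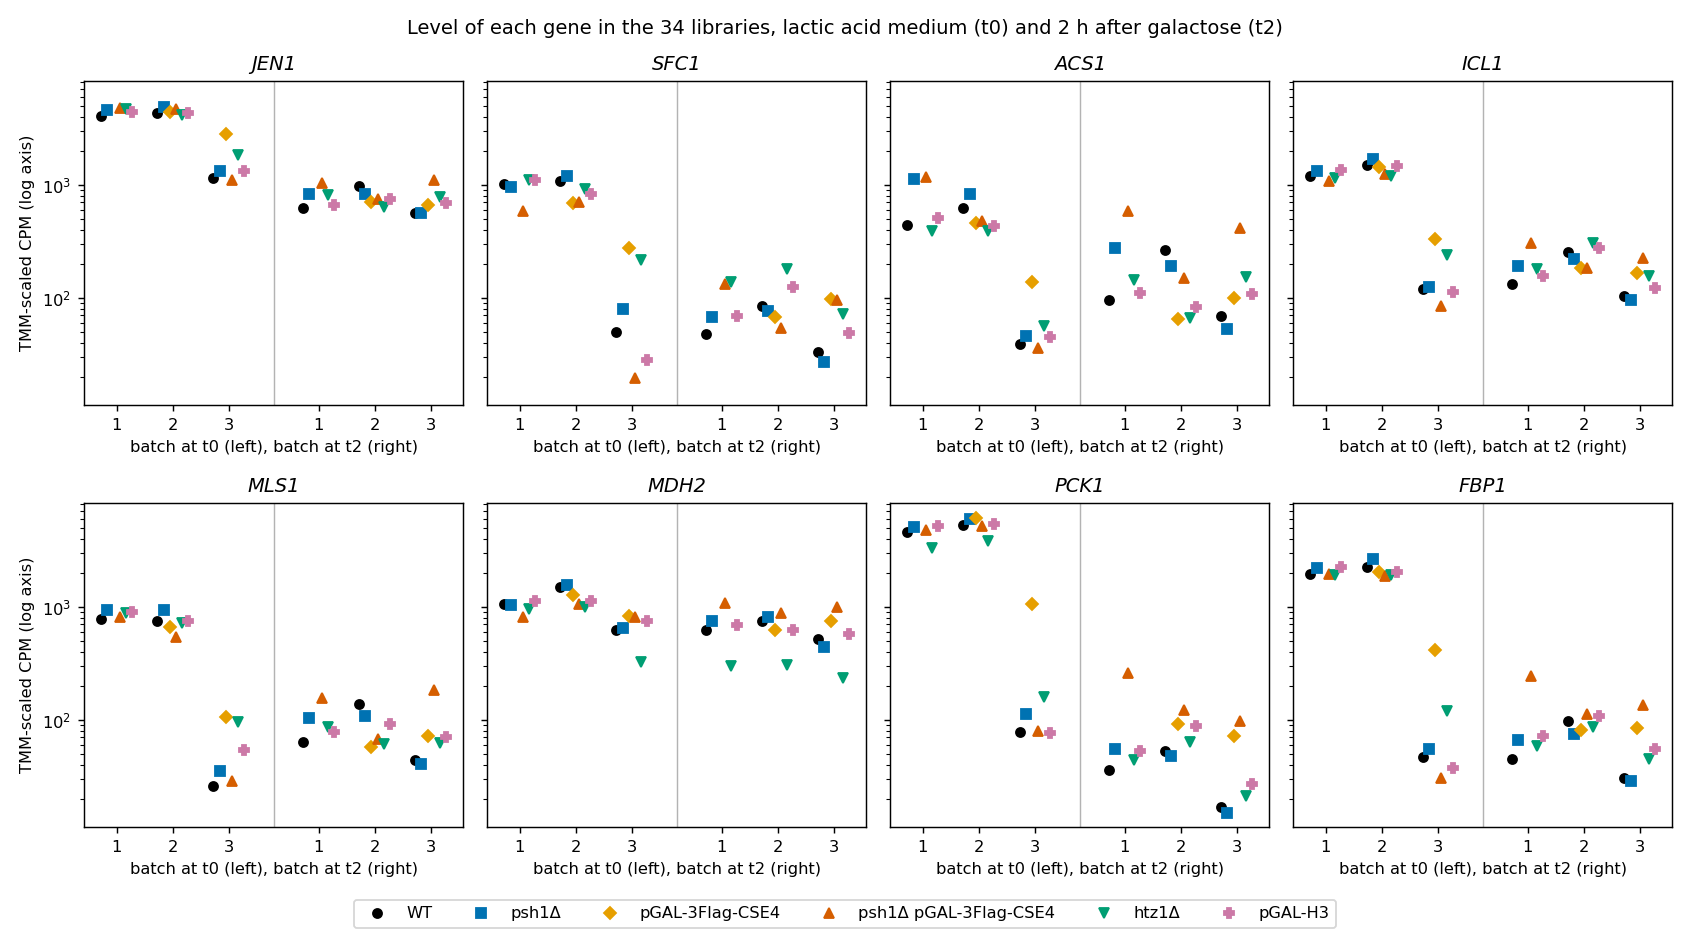
TMM-scaled CPM (log axis) of the 8 genes in each of the 34 libraries, by batch at t0 (left of the grey line) and at t2 (right), with a symbol for each genotype. At t0 all batch 3 libraries lie below those of batches 1 and 2 for 7 genes and the ranges of MDH2 overlap, whereas at t2 the 3 batches overlap for all 8 genes.

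Per kilobase of coding length, the order of levels in t0 batches 1 and 2 was *PCK1*, *JEN1* and *FBP1*, with medians of 3118, 2391 and 1938 CPM per kb, then *SFC1*, *MDH2* and *ICL1* at 976, 927 and 793 CPM per kb, and last *MLS1* and *ACS1* at 463.0 and 220.6 CPM per kb. Neighbours in this order overlapped except *FBP1* and *SFC1*, and *ICL1* and *MLS1*. In batch 3 *JEN1* and *MDH2* led, with medians of 710.9 and 615.1 CPM per kb, and *PCK1* had rank 5 at 58.0 CPM per kb. At t2 *MDH2* was first with a median of 549.7 CPM per kb and *PCK1* last with 31.9 CPM per kb. The gene with the highest median per kb in t0 batches 1 and 2 thus had the lowest at t2, although its t2 range overlapped that of *MLS1* above it.

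The difference between batches at t0 was fitted with genotype as a covariate, batch 3 (n = 6) against batches 1 and 2 together (n = 11). This split was known from earlier results of these data, and the fit describes its size. Libraries of a batch are cultures of different genotypes and not replicates of the batch. The p values therefore measure spread between cultures and not between batches. A gene was called changed at an adjusted p under 0.05 (edgeR quasi-likelihood test, Benjamini-Hochberg adjustment over all genes) with at least a 1.5-fold difference. All 8 genes were called lower in batch 3, against 3.17% of the 6209 genes called lower. *PCK1* was lower by 37.7-fold (log2 -5.24, standard error 0.40, adjusted p = 1.72e-07, edgeR), *FBP1* by 29.6-fold (log2 -4.89, standard error 0.40), *MLS1* by 15.4-fold, *SFC1* by 11.8-fold, *ACS1* by 11.1-fold and *ICL1* less (log2 -3.17). *JEN1* was lower by 3.07-fold and *MDH2* by 1.78-fold (log2 -0.83, standard error 0.14, adjusted p = 0.000318, edgeR). The median of the 8 was -3.52 on the log2 scale, and that of all genes -0.01. At t2 the ranges of batch 3 and of batches 1 and 2 overlapped for all 8 genes (0.145% of all genes had no overlap). *PCK1* alone was called lower in batch 3 (log2 -1.18, standard error 0.20, adjusted p = 0.0109, edgeR), against 0.0966% of all genes called lower. Unadjusted p was under 0.05 for 5 of the 8 genes at t2, and the median of the 8 was -0.47 (log2). Without batch 2, 3 of the 8 genes were called at t2, where 8 to 39 of all genes were called over the alternatives. The 8 genes were also all called at t0 without the *pGAL-3Flag-CSE4* libraries, without the *psh1Δ pGAL-3Flag-CSE4* libraries and without the cultures with high chromosome I. Of all genes, 305 to 376 were called at t0 over the alternatives.

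Other genes of carbon metabolism were examined by list. Of 12 further genes of C2 and C3 metabolism, 9 were called lower in batch 3 at t0 and none higher, with a median of -1.08 (log2). They included *ADH2*, the alcohol dehydrogenase that oxidises ethanol, with a median of 7044 CPM in batches 1 and 2 and 548.9 CPM in batch 3 (log2 -3.55, standard error 0.24), the acetate permease gene *ADY2* (log2 -3.44), the carnitine acetyltransferase gene *YAT1* (log2 -2.14) and the cytosolic isocitrate dehydrogenase gene *IDP2* (log2 -1.92). Of 8 regulators, *SIP4* alone was called, at medians of 33.3 CPM in batches 1 and 2 and 5.6 CPM in batch 3 (log2 -2.05, standard error 0.23). *CAT8* was at medians of 138.5 and 120.9 CPM and was not called, and neither was any other regulator of the list. Of the 2 lactate dehydrogenase genes, *DLD1* was called lower (log2 -0.71) and *CYB2* was not. None of 11 TCA cycle genes was called by edgeR or DESeq2, with 7 at an unadjusted p under 0.05. Likewise none of 7 genes for counterpart isoforms and opposing glycolytic steps was called by either tool, although all 7 had an unadjusted p under 0.05, so their differences were below the fold limit or failed the adjustment. Of 8 genes of the GID ubiquitin ligase, which marks Fbp1, Pck1, Icl1 and Mdh2 for degradation in glucose, only *UBC8* was called lower (log2 -0.96). Of the 6 *GAL* genes, *GAL7* and *GAL2* were called higher in batch 3 at t0. Growth phase and medium of the batches were not measured here, and their part in the difference was not tested.

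**Figure D2:**
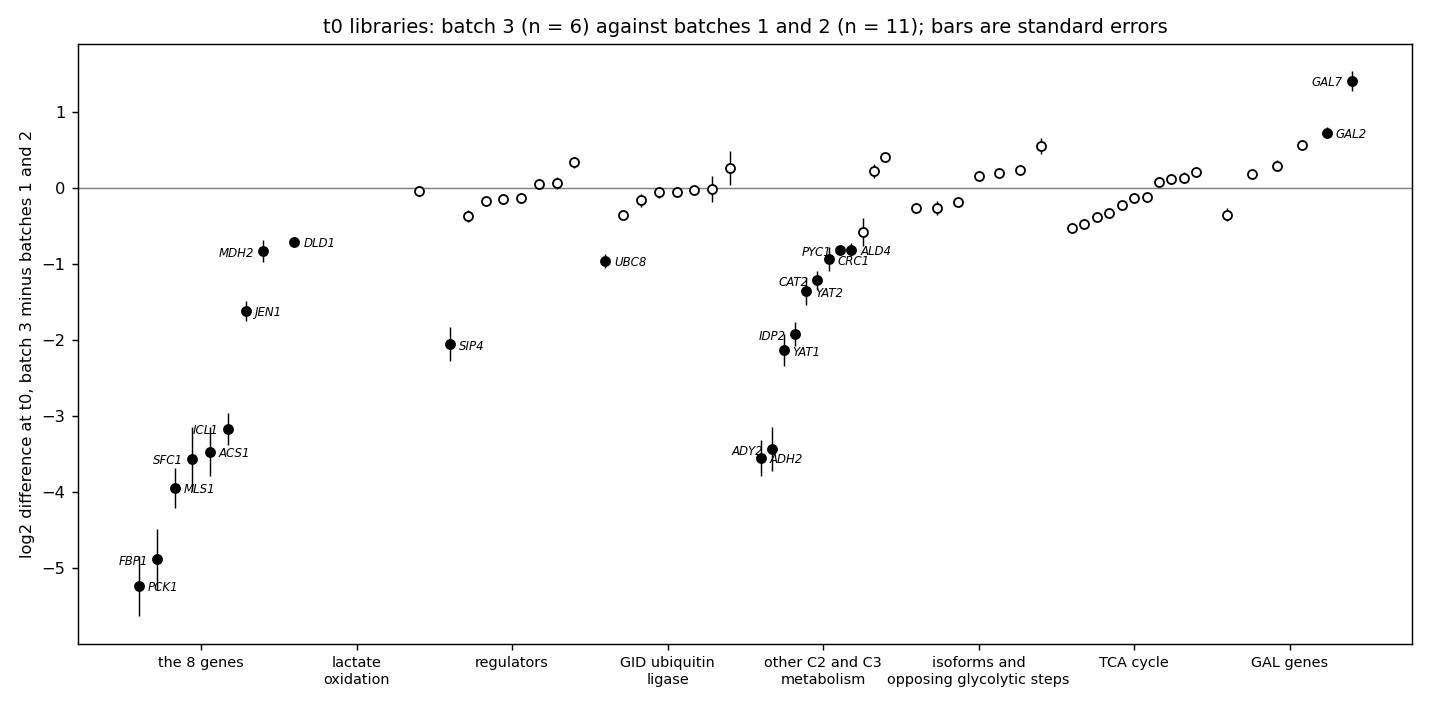
log2 difference at t0 of batch 3 (6 libraries) from batches 1 and 2 (11 libraries) for the 8 genes and 7 further lists, each point a gene with its standard error, filled where called. The 8 genes lie between -5.24 and -0.83, and 9 of the 12 other C2 and C3 genes are called lower, while no TCA cycle gene is called.

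The change from t0 to t2 compares cultures before and after the addition of galactose, a sugar that enters glycolysis. No culture was kept without galactose to t2, so galactose and 2 h of further growth cannot be told apart. In batches 1 and 2 all of the 8 genes fell in all 11 cultures, except *MDH2*, which fell in 10 and was 0.40 higher (log2) at t2 in batch 1 of *psh1Δ pGAL-3Flag-CSE4*. In WT, *PCK1* went from 4608 to 36.1 CPM in batch 1, from 5264 to 52.6 CPM in batch 2 and from 77.1 to 17.0 CPM in batch 3, and *FBP1* went from 1956 to 45.0 CPM, from 2229 to 97.5 CPM and from 47.0 to 30.3 CPM. *JEN1* went from 4046 to 627.1 CPM, from 4310.0 to 974.4 CPM and from 1133 to 558.9 CPM in the same cultures. WT cultures of all 3 batches thus ended at low levels of *PCK1* and *FBP1*, and differed mainly in where they began. *ICL1* ended at 132.5, 254.4 and 104.3 CPM in WT batches 1, 2 and 3, *MLS1* at 63.1, 137.9 and 44.0 CPM, and *SFC1* at 47.6, 83.6 and 33.3 CPM. *MDH2* ended at 623.4, 745.7 and 519.8 CPM and *ACS1* at 95.7, 266.4 and 68.6 CPM. Batch 2 was the highest and batch 3 the lowest of the 3 WT cultures at t2 for each of the 8 genes.

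Fitted over all genotypes with a term for each culture, a comparison added after the data were seen, all 8 genes were called lower at t2 in batches 1 and 2, against 5.65% of all genes called lower. *PCK1* fell by 70.7-fold (log2 -6.14, standard error 0.33, adjusted p = 3.89e-12, edgeR), *FBP1* by 24.1-fold, *SFC1* by 10.4-fold, *MLS1* by 8.85-fold, *ICL1* by 6.29-fold, *JEN1* by 5.79-fold, *ACS1* by 3.88-fold and *MDH2* by 1.76-fold. In batch 3, *JEN1* (log2 -1.10, standard error 0.16) and *PCK1* (log2 -2.20, standard error 0.42, adjusted p = 0.000485, edgeR) were called lower, against 2.3% of all genes called lower. *ACS1* was called higher (log2 1.10, standard error 0.34, adjusted p = 0.0194, edgeR), against 2.72% of all genes called higher. *ACS1* was higher at t2 in 5 of the 6 batch 3 cultures. It was not called without the block for culture (adjusted p = 0.0579, with 0.00333 the lowest over its 9 alternatives). Without the *psh1Δ pGAL-3Flag-CSE4* libraries 5 genes were called in batch 3, *SFC1* and *FBP1* being called lower as well (adjusted p = 0.0196 and 0.00587, edgeR). Of all genes, 294 to 344 were called in batch 3 over the alternatives.

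The change in batch 3 differed from that in batches 1 and 2 for 7 of the 8 genes, each with a higher log2 change in batch 3, against 2.93% of all genes called in that direction. This test came after the low t0 levels of batch 3 were known, and is not separate support for that split. Its p values measure spread between cultures and not between batches. The difference was 4.10 for *FBP1* (log2, standard error 0.49, adjusted p = 1.02e-05, edgeR), 3.94 for *PCK1*, 3.58 for *MLS1*, 3.06 for *ACS1*, 2.91 for *SFC1*, 2.52 for *ICL1* and 1.44 for *JEN1*. For *MDH2* it was 0.56 (standard error 0.23, adjusted p = 0.0963, edgeR) and was not called, but it was called without the cultures with high chromosome I (log2 0.73), without the *psh1Δ pGAL-3Flag-CSE4* libraries (log2 0.67) and without batch 1 (log2 0.71). All 6 *GAL* genes rose in both sets of batches. For 3 of them, *GAL7*, *GAL2* and *GAL1*, the rise was called smaller in batch 3 (differences of -1.46, -0.85 and -0.59 on the log2 scale). These 3 genes began from higher t0 medians in batch 3, 6.3, 24.6 and 42.0 CPM, against 2.4, 14.9 and 27.6 CPM in batches 1 and 2. At t2 none of the 6 *GAL* genes was called between batch 3 and batches 1 and 2, and none had an unadjusted p under 0.05.

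**Figure D3:**
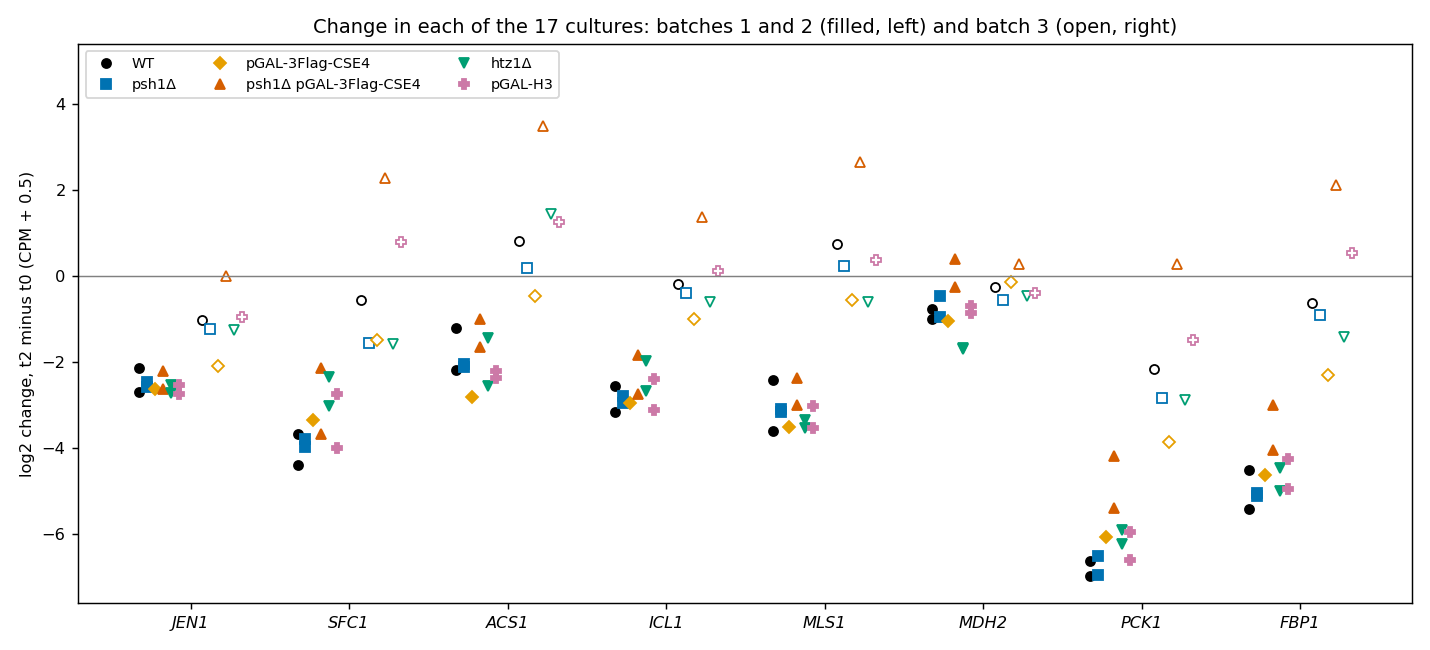
log2 change from t0 to t2 (CPM + 0.5) of each gene in each of the 17 cultures, batches 1 and 2 filled and left, batch 3 open and right, with a symbol for each genotype. Filled points all lie below 0 for 7 genes, at a median of -6.23 for PCK1. Open points lie higher, at a median of -2.49 for PCK1 and 1.04 for ACS1, and the psh1Δ pGAL-3Flag-CSE4 culture is the highest of batch 3 for all 8 genes.

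Fitted within each genotype, from 3 cultures or 2 that began at unlike levels, the number of the 8 genes called ran from 0 to 7. In WT, 3 of the 8 genes were called lower, *PCK1*, *FBP1* and *JEN1*, against 1.87% of all genes called lower. The fitted log2 change of *PCK1* was -6.57 (standard error 1.31, adjusted p = 0.0323, edgeR), and its change in the single cultures was -6.98, -6.63 and -2.15. When the 2 times of a culture were paired by a batch block, 6 were called in WT, *ICL1*, *SFC1* and *MDH2* as well, and *ACS1* and *MLS1* were not. In *psh1Δ* none of the 8 genes was called, against 0.805% of all genes called in either direction, although unadjusted p fell under 0.05 for 6. With the block 4 were called in *psh1Δ* (*SFC1*, *JEN1*, *PCK1* and *MDH2*), and DESeq2 also called 4. Without batch 3, 7 genes were called in WT and all 8 in *psh1Δ*. Over all genes, 14 to 401 were called over the alternatives in WT and 16 to 501 in *psh1Δ*. The shares given for the main fits therefore do not apply to these counts.

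In *htz1Δ* 7 of the 8 genes were called lower, all but *ACS1*, against 5.88% of all genes. In *pGAL-H3*, *JEN1*, *MLS1*, *MDH2*, *PCK1* and *FBP1* were called lower, against 5.01% of all genes, and with the block 3 were called, *JEN1*, *PCK1* and *MDH2*. In *pGAL-3Flag-CSE4* (n = 2) *JEN1*, *SFC1*, *ICL1*, *PCK1* and *FBP1* were called lower, against 3.09% of all genes. Its batch 3 culture began higher than the other batch 3 cultures, with *PCK1* at 1057 CPM against 76.2 to 158.3 CPM, and fell by 3.87 (log2). In *psh1Δ pGAL-3Flag-CSE4* none was called by edgeR, against 6.28% of all genes called in either direction, while unadjusted p fell under 0.05 for 3 and DESeq2 called 2. Its batch 3 culture was the exception among the 17, with log2 changes from 0.0049 for *JEN1* to 3.49 for *ACS1*, none of them negative. Without batch 3, 6 of the 8 were called in that genotype and all 8 in *htz1Δ* and in *pGAL-H3*. Without batch 1 or without batch 2, at most 1 was called in any of WT, *psh1Δ*, *psh1Δ pGAL-3Flag-CSE4*, *htz1Δ* and *pGAL-H3*. Over all genes, 22 to 536 were called over the alternatives in *psh1Δ pGAL-3Flag-CSE4*, 146 to 948 in *htz1Δ* and 264 to 955 in *pGAL-H3*.

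The study compared induced strains by their change from t0 to t2 against that of WT. None of the 8 genes differed from WT in this measure for any genotype, by edgeR or by DESeq2. All genes called in either direction made up 0.0% of the tests for *psh1Δ*, 0.0161% for *pGAL-3Flag-CSE4*, 0.338% for *psh1Δ pGAL-3Flag-CSE4*, 0.0% for *htz1Δ* and 0.0161% for *pGAL-H3*. An unadjusted p under 0.05 was found for 1 of the 8 genes in *psh1Δ pGAL-3Flag-CSE4*, *MDH2* (log2 0.86, standard error 0.36, adjusted p = 0.266, edgeR), and for 0 of the 8 in the other 4 genotypes. Where 0.0% of all genes were called, 79 genes in *psh1Δ* and 276 in *htz1Δ* had an unadjusted p under 0.05, and DESeq2 called 0 and 1. These tests had little resolution for this group of genes, since the standard error of the difference for *PCK1* was between 1.59 and 1.77 (log2). The smallest standard error of any of the 8 was 0.36, for *MDH2*.

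The deletion strains were compared directly with WT. In *psh1Δ* none of the 8 genes was called at t0 or at t2 by edgeR or DESeq2, and no unadjusted p was under 0.05. At both times 0.0161% of all genes were called in either direction. At t0 *MLS1* was higher than in WT of the same batch by 0.27, 0.32 and 0.43 (log2) in batches 1, 2 and 3, and *JEN1* by 0.18, 0.18 and 0.21, but at t2 neither kept 1 direction in the 3 batches. *ACS1* was 1.35, 0.41 and 0.25 above WT at t0. At t2 it was above WT only in batch 1 and differed by -0.49 and -0.38 in batches 2 and 3. Chromosome I in batch 1 had medians of 0.84 in the t0 library and 0.80 in the t2 library above WT.

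In *htz1Δ* at t2, *MDH2* was lower and *SFC1* higher than in WT. *MDH2* was at 298.4, 305.7 and 234.7 CPM in *htz1Δ* batches 1, 2 and 3 and at 623.4, 745.7 and 519.8 CPM in WT. The groups did not overlap, and 18.0% of all genes lay wholly below WT in this way. The difference within a batch was -1.06, -1.29 and -1.15 in log2 units. The fit gave a 2.26-fold lower level (log2 -1.17, standard error 0.14, adjusted p = 0.000748, edgeR), against 3.93% of all genes called lower, and *MDH2* was called under all 8 alternatives (adjusted p between 4.62e-14 and 0.0307). *SFC1* was at 136.3, 179.3 and 72.3 CPM in *htz1Δ* and at 47.6, 83.6 and 33.3 CPM in WT. These ranges overlapped, but within each batch *htz1Δ* was higher, by 1.51, 1.10 and 1.11 (log2). *SFC1* was 2.36-fold higher (log2 1.24, standard error 0.34, adjusted p = 0.0281, edgeR), against 2.61% of all genes called higher. That call was lost in DESeq2, in the fit of all 34 libraries and without batch 1 (adjusted p between 0.000138 and 0.496 over 8 alternatives). *ACS1* was not called (log2 -0.25, standard error 0.43) and lay 0.58, -1.99 and 1.16 from WT in batches 1, 2 and 3.

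At t0 none of the 8 genes was called in *htz1Δ*, against 2.98% of all genes called in either direction, and no unadjusted p was under 0.05 (DESeq2 also called none). *MDH2* was already below WT in each batch, with log2 differences of -0.15, -0.60 and -0.93. With the batch as a block its adjusted p was 0.00659 at a log2 difference of -0.55, short of the fold limit. The mitochondrial and peroxisomal malate dehydrogenase genes *MDH1* and *MDH3* were not called at t2 in *htz1Δ*. *VID24*, which encodes a substrate receptor of the GID ligase, was called lower at t2 (log2 -0.72, standard error 0.10) and *CDC19*, the main pyruvate kinase gene, higher (log2 0.64, standard error 0.13).

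In *psh1Δ pGAL-3Flag-CSE4* at t2, in a comparison with WT added after the data were seen, *PCK1*, *FBP1* and *MDH2* were higher. *PCK1* was at 260.4, 121.9 and 97.4 CPM in batches 1, 2 and 3, against 36.1, 52.6 and 17.0 CPM in WT, without overlap. It was 4.52-fold higher (log2 2.18, standard error 0.44, adjusted p = 0.0142, edgeR). *FBP1* was at 241.6, 112.6 and 134.8 CPM against 45.0, 97.5 and 30.3 CPM (2.82-fold, log2 1.49, standard error 0.41, adjusted p = 0.0415, edgeR), and *MDH2* at 1075, 883.5 and 983.2 CPM against 623.4, 745.7 and 519.8 CPM (1.55-fold, log2 0.63, standard error 0.15, adjusted p = 0.0242, edgeR). All 3 genes had ranges wholly above WT, as had 17.9% of all genes, and 4.7% of all genes were called higher. With the batch as a block *PCK1* alone was called (adjusted p = 0.0230), and *FBP1* and *MDH2* had adjusted p values of 0.0799 and 0.0696. *FBP1* was not called by DESeq2 (adjusted p = 0.0714), and in the fit of all 34 libraries none of the 3 was called (adjusted p = 0.283 for *PCK1*, 0.439 for *FBP1* and 0.182 for *MDH2*). At t0 *PCK1* had been at 4733, 5145 and 80.2 CPM in the same 3 cultures, so its t2 level was far under that of t0 in batches 1 and 2 and above it in batch 3.

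The batches disagreed in this comparison. In batches 1 and 3 each of the 8 genes was above WT, by 0.72 to 2.83 and by 0.92 to 2.57 (log2), while in batch 2, 5 genes were below it, with log2 differences of -1.02 for *MLS1* and -0.83 for *ACS1*. Without batch 2 all 8 genes were called higher, and without batch 1 none was, and without batch 3 *PCK1* alone was called. Over all genes, 48 to 820 were called in either direction over the alternatives, so the share given for the main fit does not apply to these. *ACS1* was at 587.8, 149.8 and 409.8 CPM, against 95.7, 266.4 and 68.6 CPM in WT, and its adjusted p was 0.119 (log2 1.40, standard error 0.55, edgeR). In its batch 1 library the chromosome I median was 0.91 above WT, and the *ACS1* difference there was 2.61. In batch 3, where no such shift was seen, it was 2.57.

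Among the other lists in this comparison, 4 of 12 C2 and C3 genes were called higher and none lower, *YAT1* (log2 1.54), *IDP2* (log2 1.42), *CIT2* (log2 1.08) and *YAT2* (log2 1.08). The TCA cycle genes *SDH2*, *IDH1* and *IDH2* were called higher by 0.61 to 0.64 (log2), as were *SIP4* (log2 1.07), *CYB2* (log2 0.81) and *CDC19* (log2 0.92). *VID28* was called higher as well (log2 1.51), and 2 of the 6 *GAL* genes.

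Induction of CENP-A Cse4 with *PSH1* intact, or of H3, gave no call among the 8 genes against WT at t2 by edgeR or DESeq2. In *pGAL-3Flag-CSE4* 0.306% of all genes were called in either direction. *PCK1* was at 90.9 and 71.9 CPM in batches 2 and 3, above the 3 WT libraries, as were 10.9% of all genes, and unadjusted p was under 0.05 for 1 of the 8. Without batch 2, 1 of the 8 was called. In *pGAL-H3* 0.0483% of all genes were called and no unadjusted p among the 8 was under 0.05. *SFC1* was nevertheless above WT by 0.53, 0.56 and 0.55 (log2) in batches 1, 2 and 3, and *PCK1* by 0.53, 0.73 and 0.65. With the batch as a block both had an adjusted p of 0.119 (log2 0.55 for *SFC1* and 0.64 for *PCK1*, edgeR). Whether *psh1Δ pGAL-3Flag-CSE4* and *pGAL-3Flag-CSE4* differ from each other at t2 was not tested.

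**Figure D4:**
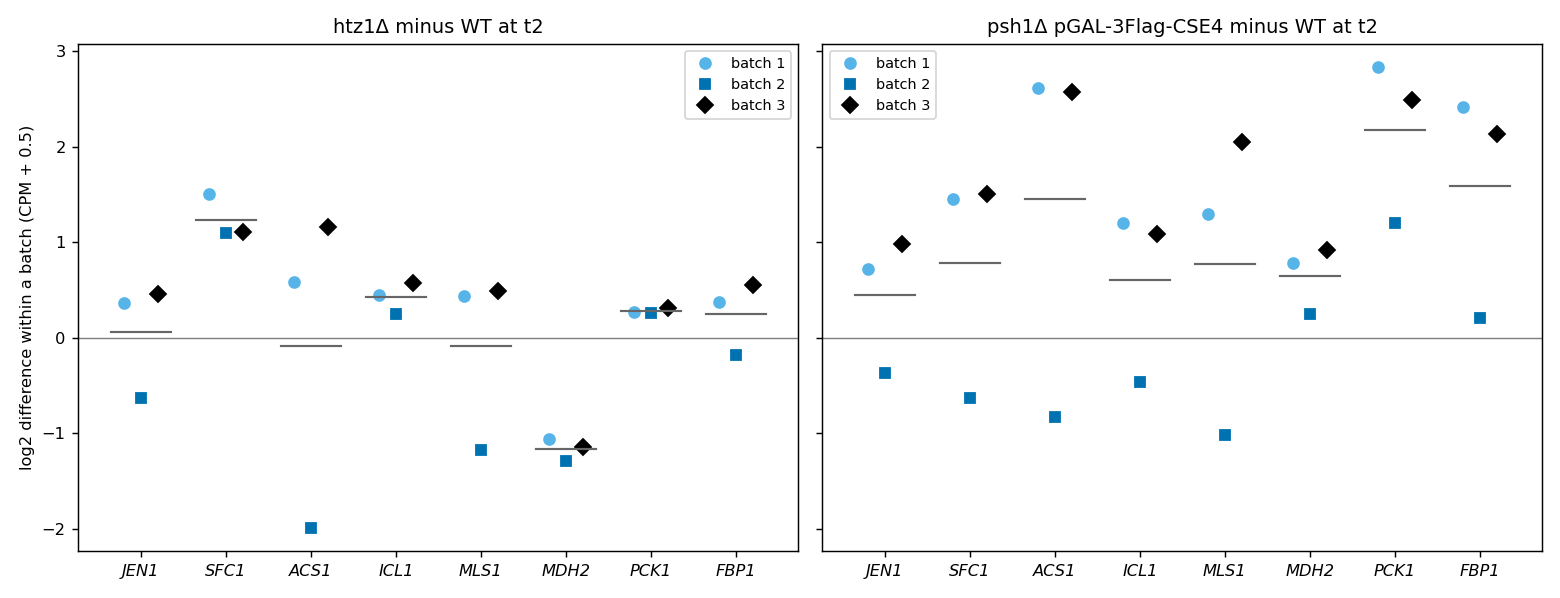
log2 difference from WT of the same batch at t2 (CPM + 0.5) for htz1Δ (left) and psh1Δ pGAL-3Flag-CSE4 (right), a point for each batch and a line at their mean. In htz1Δ the 3 points lie close together for MDH2 (-1.06 to -1.29) and SFC1 (1.10 to 1.51), and in psh1Δ pGAL-3Flag-CSE4 batch 2 is the lowest point for all 8 genes.

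Across the 34 libraries the 8 genes varied together. The Pearson correlation of log2(CPM + 0.5) between pairs ran from 0.54 (*SFC1* and *MDH2*) to 0.99 (*ICL1* and *FBP1*), with a median of 0.90 over 28 pairs. *FBP1* was closest to the mean of the other 7 (r = 0.995) and *MDH2* least close (r = 0.68). These libraries share batches and cultures, and the correlations describe them only. Within the 17 libraries of t2 the difference between batches was smaller than at t0. There the median over pairs was 0.64, the highest 0.96 (*PCK1* and *FBP1*) and the lowest -0.04 (*SFC1* and *MDH2*). The genes outside the 8 whose pattern was most like their mean over the 34 libraries were *GDH2*, the NAD-dependent glutamate dehydrogenase gene (r = 0.99), *ADH2* (r = 0.98), *ALP1*, a basic amino acid permease gene (r = 0.96), *IDP2* (r = 0.96) and *SIP2*, which encodes a beta subunit of the Snf1 complex (r = 0.95). *GDH2* had medians of 1185 CPM in batches 1 and 2 at t0, 316.9 CPM in batch 3 at t0 and 351.2 CPM at t2, and *SIP2* medians of 102.5, 55.5 and 44.5 CPM.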

How the data were processed

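The deposited tables hold raw counts per gene, made by the authors from single-end reads of TruSeq v2 libraries with TopHat 2.1.0 on SacCer3 and HTSeq 0.6.1, after low-quality reads had been filtered. The authors' normalized values and their own fold changes, p values and call scores (edgeR 3.12.0) are other deposited columns and were not used. The kit does not mark strand. The 64 count columns of 8 tables were read into 34 libraries, the 30 repeats being identical. The repeated libraries of a group differed by more than counting error, with a chi-square per degree of freedom of at least 4.83, and were kept as separate cultures.

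Counts were analysed as deposited (R 4.3.3, edgeR 4.0.16, TMM, glmQLFit and glmQLFTest) on the libraries of each comparison, with p-values adjusted over 6209 genes. Levels are TMM-scaled CPM over all 34 libraries, and log2 values of single libraries used a pseudocount of 0.5. Fold changes are 2 to the fitted log2 value, and the standard error is the log2 value over the root of the F statistic. Alternatives were DESeq2 1.42.0, its size factors in edgeR, a filter of at least 10 counts in at least 3 libraries, 1 fit of all 34 libraries, leaving out each batch, and the batch or culture as a block. Direct comparisons of the induced strains with WT at t2, the fit over all genotypes, a batch-by-time block and the fits without chosen libraries were added after seeing the data. Library totals limit precision to counting error on at least 84 counts.

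The numbers pair libraries, since per the labels a number is a batch, and both times of a culture share a strain. Deviations from group means correlated with a median of 0.40 over 80 pairs of the same batch and time, of which 64 exceeded 0.1, and with a median of 0.18 over 17 pairs from the same culture. Named genes are the 8 genes, lists of genes of the same pathways, and the 5 genes most correlated with the mean of the 8 among those with a mean of at least 10 counts. The 8 genes and all lists were chosen with earlier results of these data known. The methods were tested on simulated counts without batch or culture effects, which does not cover cultures that start at unlike levels. Of the 6209 genes, 5693 had the same coordinates in the RefSeq R64 annotation, among them all 8. Protein sequences were not used here.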

Additional observations from a re-analysis of the deposited data

Results flagged for a closer look

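The change from t0 to t2 over all genotypes differed between batch 3 and batches 1 and 2 for 7 of the 8 genes by a test of the difference itself (edgeR quasi-likelihood test, culture as a block), each with a higher log2 change in batch 3. The difference was 4.10 for *FBP1* (log2), 3.94 for *PCK1*, 3.58 for *MLS1*, 3.06 for *ACS1*, 2.91 for *SFC1*, 2.52 for *ICL1* and 1.44 for *JEN1*. The t0 levels of batch 3 stand beside it, since the ranges of batch 3 and of batches 1 and 2 did not overlap at t0 for 7 of the 8 genes (batch 3 was wholly below for 2.72% of all genes) and overlapped at t2 for all 8. The t0 split was known before this test, so the test is not separate support for it. Batch and strain isolate cannot be told apart, and no cause was tested.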

How the results depend on the processing

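Counts out of the 8 genes are given. All 8 were called in batch 3 against batches 1 and 2 at t0 and in the change over all genotypes in batches 1 and 2 under every alternative run, and 7 or 8 in the difference between those changes. The change in WT called 3 genes, 5 with DESeq2, 6 with the batch as a replicate block and 0 to 7 with 1 batch left out. The change in *psh1Δ* called 0, 4 with DESeq2, 4 with all 34 libraries in 1 fit, 4 with the block and 0 to 8 with 1 batch left out. The change in *psh1Δ pGAL-3Flag-CSE4* called 0, 2 with DESeq2, 2 in the fit of all 34 libraries and 0 to 6 with 1 batch left out. The change in *pGAL-3Flag-CSE4* called 5 and 1 in the fit of all 34 libraries, and leaving out a batch leaves no residual degrees of freedom there. The change in *htz1Δ* called 7, 4 in the fit of all 34 libraries and 1 to 8 with 1 batch left out, and that in *pGAL-H3* called 5, 3 with the block and 0 to 8 with 1 batch left out. The change in batch 3 called 3, and 5 without the *psh1Δ pGAL-3Flag-CSE4* libraries.

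*htz1Δ* against WT at t2 called 2, 1 with DESeq2, 1 in the fit of all 34 libraries and 1 to 3 with 1 batch left out. There *ACS1* went from -0.25 (log2) to 0.85 without batch 2, where it was called, and -0.79 without batch 3. *psh1Δ pGAL-3Flag-CSE4* against WT at t2 called 3, 0 in the fit of all 34 libraries, 1 with the block and 0 to 8 with 1 batch left out, *pGAL-3Flag-CSE4* against WT at t2 called 0 and 0 to 1, and batch 3 against batches 1 and 2 at t2 called 1 and 1 to 3. The fit of all 34 libraries shares 1 estimate of the spread that includes the t0 difference between batches. The replicate block changed no other count by over 1.5 times, and the differences from the change in WT called 0 with the culture and 0 with batch by time as a block. Where a batch left out leaves 1 library in an arm, it is assumed to vary like the others.

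Counts over all genes moved by over 1.5 times in the change in WT (186, 14 to 401 over alternatives), in *psh1Δ* (50, 16 to 501), in *pGAL-3Flag-CSE4* (302, 152 to 379), in *psh1Δ pGAL-3Flag-CSE4* (390, 22 to 536), in *htz1Δ* (673, 146 to 948) and in *pGAL-H3* (671, 264 to 955), in *htz1Δ* against WT at t0 (185, 1 to 364) and t2 (406, 215 to 425), in *psh1Δ pGAL-3Flag-CSE4* (486, 48 to 820) and *pGAL-3Flag-CSE4* (19, 9 to 33) against WT at t2, in batch 3 at t2 (12, 8 to 39) and in the change in *psh1Δ pGAL-3Flag-CSE4* minus that in WT (21, 1 to 188). So did counts of 0 to 3 in 5 comparisons, none of which passed 9. With 2 or 3 cultures per genotype that start from unlike levels, a gene not called here may still differ.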
